A study of Canis lupus familiaris with 29 samples.

Results

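The genes of the nicotinic and muscarinic acetylcholine receptors were followed in canine pheochromocytomas and paragangliomas (PPGLs) and in normal adrenal medullas (NAMs). They were picked by gene name from a list of 10 (CHRNA3, CHRNA4, CHRNA5, CHRNA7, CHRNB2, CHRNB4, CHRM1, CHRM2, CHRM3 and CHRM4), and 9 of them were found among the 30951 genes of the count table. CHRNA7 was not found by name and was not analysed here. CHRM2 did not pass the low-count filter, so that 8 genes were tested in each comparison. The study sequenced RNA from 29 tissue samples: 10 NAMs of healthy research dogs and 19 PPGLs of patient dogs. The authors divided the tumors into PPGL group 1 with 7 samples and PPGL group 2 with 12 by a principal component analysis of these samples, so p-values between the groups describe that split. Tumors that stood apart as outliers had been left out by the authors. The labels give no sex, age or treatment. Normal and tumor tissue, and research dogs and patients, cannot be told apart in the comparisons with NAMs.

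Acetylcholine released by splanchnic nerve endings opens nicotinic receptors on chromaffin cells, and the cation current that follows sets off calcium entry and catecholamine release. Nicotinic receptors are pentamers of α subunits alone or of α and β subunits, and the autonomic type of ganglia and adrenal medulla is built mainly from the products of CHRNA3 and CHRNB4, with the CHRNA5 product as an accessory subunit. Muscarinic receptors are G protein-coupled: the CHRM1 and CHRM3 products act through Gq and phospholipase C, and the CHRM2 and CHRM4 products through Gi.

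Levels are given as CPM (the counts of a gene relative to the library total), scaled between libraries by the trimmed mean of M-values (TMM). Libraries held 19258054 to 35918182 assigned reads in NAMs (median 25494016.5), 18493540 to 31919833 in group 1 (median 20825468) and 18208718 to 24569667 in group 2 (median 22051743). At this depth 3 counts, taken as the floor under which a gene is not told from 0, equal 0.0779 to 0.164 CPM in NAMs, 0.0895 to 0.175 CPM in group 1 and 0.116 to 0.169 CPM in group 2. The floor covers counting error alone. Differences are log2 fold changes (log2 FC) with 95% intervals and with p-values of the quasi-likelihood F test of edgeR, adjusted for the false discovery rate over all genes tested. A gene counts as higher or lower when its adjusted p was below 0.05 against NAMs, or below 0.1 between the tumor groups.

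The labelled tissue was checked against marker genes. Of 11 chromaffin cell markers 10 were found, with CHGB the most abundant, and they summed to 18080 to 97728 CPM in NAMs (median 32490), 7781 to 118956 in group 1 (median 35494) and 21314 to 105458 in group 2 (median 50067). Group 1 tumors 7 (7781 CPM) and 5 (12461 CPM) had the lowest sums. In PPGLs against NAMs, 2 of the 10 chromaffin markers were higher (all genes 22.3%) and 1 was lower (all genes 15.2%). Of 11 adrenal cortex markers 10 were found, with CYP17A1 the most abundant, and their sums were far apart between the groups: 14094 to 69034 CPM in NAMs (median 37345), 92.0 to 1169 in group 1 (median 275) and 255 to 34400 in group 2 (median 3685). By the adjusted p threshold, 9 of the 10 cortex markers were lower in PPGLs than in NAMs (all genes 15.2%). Between the tumor groups, 9 of the 10 were lower in group 1 (all genes 2.95%). The NAMs therefore held cortical RNA beside that of chromaffin cells. In bulk samples, fewer cells of a type and less RNA per cell cannot be told apart. Fits with a cortical score or a chromaffin score as covariate, and without 3 doubted tumors, were made. Where they change a receptor result, their values are given, or only the counts of genes passing.

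In PPGLs against NAMs, 4 of the 8 tested receptor genes were higher (CHRNA5, CHRNB2, CHRNA3 and CHRNB4) and 0 were lower by edgeR, where 22.3% of all 14766 genes tested were higher and 15.2% were lower. At an unadjusted p below 0.05 the count of lower receptor genes was 0 as well, DESeq2 gave 0, and the Mann-Whitney U-test and an edgeR fit of 3 groups each gave 1 (CHRNA4). All 4 higher genes are nicotinic, from 5 nicotinic genes tested, and 0 of the 3 muscarinic genes tested passed the threshold. The median log2 FC was 1.20 over the nicotinic genes and 0.37 over the muscarinic genes, with 0.13 over all genes. In group 1 against NAMs, 4 receptor genes were higher (all genes 21%) and 1 was lower (all genes 14.1%). In group 2 against NAMs, 5 were higher (all genes 18.4%) and 0 lower (all genes 14.5%), and DESeq2 and the Mann-Whitney U-test also gave 0 lower. Both of these comparisons use the same NAMs. In group 1 against group 2, 2 of the 8 genes were lower, CHRNA4 and CHRM3 (all genes 2.95%), and 0 were higher (all genes 3.97%). DESeq2 and the Mann-Whitney U-test gave 0 higher there too. Counts this small describe the genes concerned and say little about the family as a whole.

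**Figure D1:**
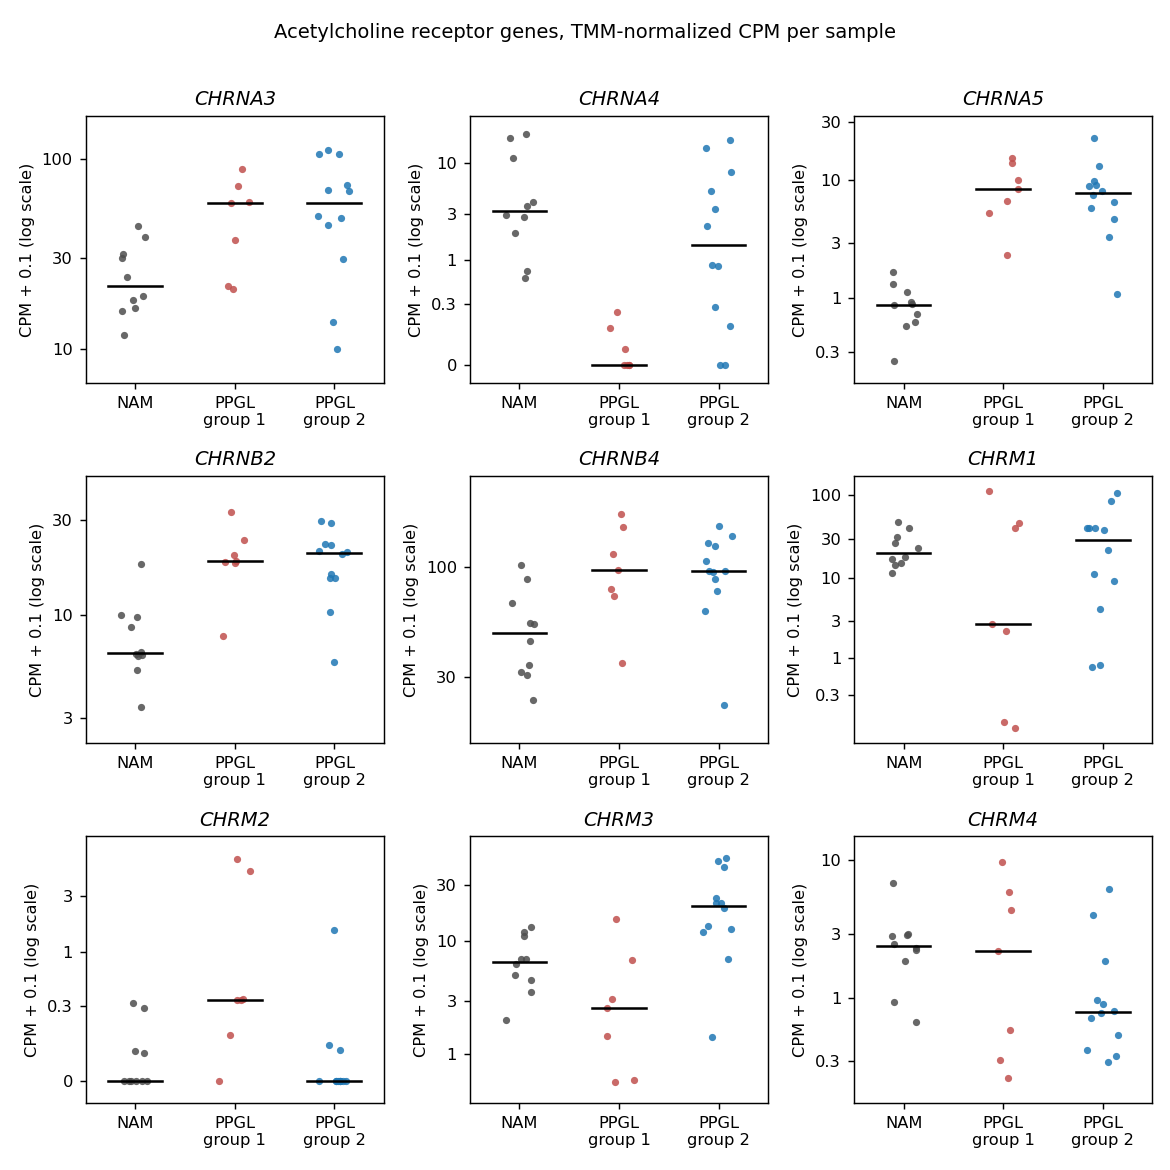
Levels of the receptor genes in each sample (CPM + 0.1, log scale). Each point is 1 sample (10 NAMs, 7 group 1 and 12 group 2 tumors), and the black line is the group median.

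CHRNA3 codes for the α subunit that carries the acetylcholine binding face of the autonomic receptor. Its level was 11.8 to 44.3 CPM in NAMs (median 21.5), 20.8 to 88.7 in group 1 (median 58.9) and 9.97 to 111 in group 2 (median 59.3). The ranges overlapped: 13 of 19 tumors lay above every NAM, 16 lay above the NAM median, and group 2 tumor 9 (9.97 CPM) lay below every NAM. The highest levels were those of group 2 tumors 7 (111 CPM), 1 (107 CPM) and 12 (106 CPM), and the lowest tumors after group 2 tumor 9 were group 2 tumor 10 (13.8 CPM) and group 1 tumors 3 (20.8 CPM) and 7 (21.5 CPM). Among NAMs, replicates 3, 4, 5 and 10 had the 4 highest CHRNA3 levels and also the 4 highest chromaffin marker scores. CHRNA3 was 2.29-fold higher in PPGLs than in NAMs (log2 FC 1.20, SE 0.33, 95% interval 0.53 to 1.86, adjusted p = 0.00475). The log2 FC was 1.03 in group 1 (0.24 to 1.82, adjusted p = 0.0392) and 1.28 in group 2 (0.56 to 2.00, adjusted p = 0.00607), and between the groups −0.23 (−1.10 to 0.63, adjusted p = 0.805).

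The CHRNA3 difference between group 1 and NAMs sits close to the threshold. It did not pass without NAM 1 (adjusted p = 0.0639), NAM 2 (0.0538), NAM 6 (0.0625), NAM 7 (0.0634), NAM 8 (0.0674) or NAM 9 (0.0601), nor without group 1 tumor 1 (0.0617), 4 (0.0794), 5 (0.106) or 6 (0.0631). The log2 FC of CHRNA3 stayed between 0.84 and 1.18 over all 29 fits with 1 sample left out. It also missed the threshold with no low-count filter (adjusted p = 0.0526) and by the Mann-Whitney U-test (adjusted p = 0.0754), in a range from 0.0121 to 0.981 over the 11 other settings.

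CHRNA5 codes for the accessory α subunit, which joins receptors made of other subunits and does not form a channel alone. Its level was 0.239 to 1.72 CPM in NAMs (median 0.879), 2.4 to 15.4 in group 1 (median 8.54) and 1.09 to 22.2 in group 2 (median 7.87). Every NAM was above the floor, with 6 to 45 counts, and 18 of 19 tumors lay above every NAM. The exception was group 2 tumor 10 (1.09 CPM), which also had a cortical marker score within the range of the NAMs. The highest CHRNA5 levels were in group 2 tumor 12 (22.2 CPM) and group 1 tumors 5 (15.4 CPM) and 6 (13.9 CPM). CHRNA5 was 9.50-fold higher in PPGLs than in NAMs (log2 FC 3.25, SE 0.39, interval 2.46 to 4.04, adjusted p = 6.2e-07). The difference was 3.30 in group 1 (2.41 to 4.18, adjusted p = 2.4e-06) and 3.21 in group 2 (2.38 to 4.04, adjusted p = 2.59e-06). Between the tumor groups it was 0.10 (−0.79 to 0.99, adjusted p = 0.924). For PPGLs against NAMs, CHRNA5 passed the threshold in each of the 12 other settings tried, with log2 FC from 3.12 to 3.41.

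CHRNB4, CHRNA3 and CHRNA5 lie next to each other on chromosome 13 of the dog genome (CanFam3.1), as they do in other mammals. CHRNB4 (ENSCAFG00000023904) spans 38312173 to 38328341 and CHRNA3 (ENSCAFG00000001710) 38328814 to 38346246, both on the plus strand and 472 bases apart. CHRNA5 (ENSCAFG00000001745) spans 38346104 to 38355468 on the minus strand, tail to tail with CHRNA3, and the exons of CHRNA3 and CHRNA5 share 81 bases. The strand setting of the counting is not stated, so reads in those 81 bases may be missing from either gene or counted for the other. The next annotated genes from the list of neighbours are HYKK (38378646 to 38396239), 23177 bases from CHRNA5, and IREB2 (38400591 to 38441015), which codes for an iron-responsive RNA-binding protein. IREB2 was lower in PPGLs (log2 FC −0.89, adjusted p = 0.0028), with 16 of 19 tumors below every NAM. HYKK, coding for a hydroxylysine kinase, had a log2 FC of 0.56 (0.03 to 1.10, adjusted p = 0.0897). HYKK passed the threshold without group 2 tumor 9 (0.62, adjusted p = 0.043) or 11 (0.62, adjusted p = 0.0386), and without 3 doubted tumors (0.72, adjusted p = 0.0112).

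**Figure D2:**
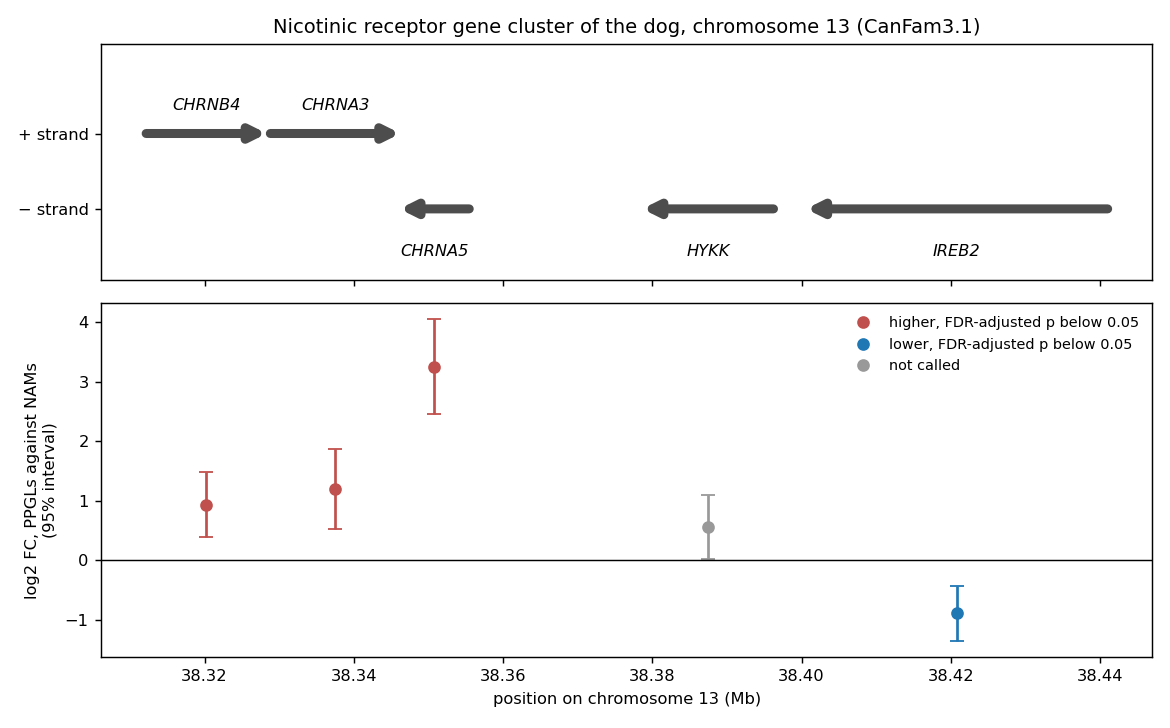
Genes of the nicotinic receptor cluster along dog chromosome 13 (CanFam3.1, position in Mb, arrows point along transcription). Below, log2 FC of PPGLs (n = 19) against NAMs (n = 10) with 95% intervals, at the middle of each gene.

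Within the groups, CHRNA3 and CHRNA5 varied together in group 2: r = 0.79 and rho = 0.80 on log2 CPM (n = 12, permutation test, adjusted p = 0.0238 for both over 18 values from 9 relations), and r = 0.78 without group 2 tumors 9 and 10, the farthest from the median of CHRNA3. The same pair had r = 0.32 and rho = 0.41 in NAMs (r = 0.02 without the 2 farthest samples) and r = 0.62 and rho = 0.82 in group 1 (r = 0.90 without them). CHRNA3 and CHRNB4 had r = 0.76 in NAMs, 0.79 in group 1 and 0.68 in group 2 (permutation tests, exact in group 1, adjusted p = 0.0683 each), and without the 2 farthest samples 0.49, 0.64 and 0.39. CHRNB4 and CHRNA5 had r = 0.67 in NAMs, 0.62 in group 1 and 0.27 in group 2, and without the 2 farthest samples 0.18, 0.83 and 0.26. In NAMs the values without the 2 farthest samples depended on the scaling: by library size, where 1 of the 2 was another NAM, r was 0.41 for CHRNA3 and CHRNA5, 0.66 for CHRNA3 and CHRNB4 and 0.58 for CHRNB4 and CHRNA5. Apart from CHRNA3 with CHRNA5 in group 2, 0 of the relations reached an adjusted p below 0.05 by the permutation test.

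CHRNA4 (ENSCAFG00000012893, chromosome 24, 47025187 to 47042266, minus strand) codes for the α subunit of the main nicotinic receptor of the brain, where it joins the CHRNB2 product. Its level was 0.623 to 19.2 CPM in NAMs (median 3.30), 0 to 0.233 in group 1 (median 0) and 0 to 17.0 in group 2 (median 1.58). In group 1 the counts of replicates 1 to 7 were 3, 0, 0, 1, 0, 4 and 0, so that 6 of 7 tumors were at or under the floor and all 7 lay below every NAM. Group 2 was spread widely, with 4 of 12 tumors below every NAM and 0 above every NAM: tumors 7 and 11 were at 0 and tumor 3 had 3 counts, and tumors 9 (17.0 CPM), 2 (14.1 CPM) and 1 (8.06 CPM) were high. NAMs varied as widely, with the highest level in NAM 1 (19.2 CPM), NAM 6 (17.5 CPM) and NAM 8 (11.1 CPM). CHRNA4 was lower in group 1 than in NAMs (log2 FC −6.82, interval −9.66 to −3.97, adjusted p = 0.000389) and than in group 2 (−6.19, −9.25 to −3.13, adjusted p = 0.0269, 0 of 7 tumors above the group 2 median). With so few counts in group 1 these fitted values depend on the prior count, and with a prior count of 2 they were −5.56 and −4.93. Without group 1 tumor 6, which held 4 of the 8 counts, they were −7.63 and −7.01. With the cortical score as covariate, the sign against NAMs turned to 2.60 (adjusted p = 0.786, in a range of 4.17e-09 to 0.786 over 11 settings), and against group 2 the value was −0.18 (0.997, in a range of 1.71e-05 to 0.997).

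In group 2 against NAMs, the CHRNA4 log2 FC was −0.57 (−2.25 to 1.11, adjusted p = 0.621), and over all PPGLs −1.22 (−3.17 to 0.73, adjusted p = 0.327), with 11 of 19 tumors below every NAM. The result over all PPGLs depended on the test: the Mann-Whitney U-test gave an adjusted p of 0.0412, and a fit of the 3 groups with the tumor groups weighted equally gave −3.70 (adjusted p = 0.000948), in a range of 0.000948 to 0.383 over the 12 other settings. For group 1 against group 2 the Mann-Whitney U-test gave an adjusted p of 0.170, in a range of 1.71e-05 to 0.997 over 11 settings, and CHRNA4 did not pass a filter of 1 CPM. Group 1, with cortical scores of −0.19 to 4.07 (mean log2 CPM of the cortex markers), had almost no CHRNA4 counts. Group 1 tumor 6 (4.07) scored above group 2 tumor 7 (3.40), so the ranges of the tumor groups overlapped. Group 2 tumors 7, 11 and 3, with CHRNA4 at or under the floor, had the lowest scores of their group (3.40, 4.99 and 5.27). The other group 2 tumors had scores of 6.75 to 10.34 and CHRNA4 levels of 0.273 to 17.0 CPM. Of the NAMs with the 3 highest CHRNA4 levels, NAM 8 and NAM 6 had the highest scores (11.49 and 11.25) and NAM 1 a score of 10.48. Low CHRNA4 levels also stood beside scores above all of group 1, in NAM 4 (0.623 CPM, score 9.40), NAM 10 (0.748 CPM, score 10.13) and group 2 tumor 4 (0.273 CPM, score 7.30). Among the NAMs, the scores of NAM 4 and NAM 10 lay under the median (10.57). NAM 5, with the lowest score of the NAMs (9.31), had 3.98 CPM. The highest level of group 2, in tumor 9, stood beside a score of 6.84. No correlation of CHRNA4 with the score was computed.

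CHRNB4 codes for the β subunit that pairs with the CHRNA3 product. Its level was 23.4 to 102 CPM in NAMs (median 48.9), 35.0 to 177 in group 1 (median 96.0) and 22.0 to 157 in group 2 (median 95.5). Most tumors overlapped the NAMs: 8 of 19 lay above every NAM, and 17 above the NAM median. Group 2 tumor 9 (22.0 CPM), the tumor with the lowest CHRNA3 level, lay below every NAM for CHRNB4 as well, and group 1 tumor 4 (177 CPM) and group 2 tumor 7 (157 CPM) were highest. CHRNB4 was 1.91-fold higher in PPGLs (log2 FC 0.93, SE 0.27, interval 0.39 to 1.48, adjusted p = 0.00661). The log2 FC was 0.97 in group 1 (0.31 to 1.63, adjusted p = 0.0198), 0.90 in group 2 (0.31 to 1.49, adjusted p = 0.0168) and 0.08 between them (−0.57 to 0.73, adjusted p = 0.917). In group 1 against NAMs, CHRNB4 did not pass the threshold without group 1 tumor 4 (0.79, adjusted p = 0.0647) or 6 (0.85, adjusted p = 0.0514), nor by the Mann-Whitney U-test (adjusted p = 0.0603, in a range of 0.00221 to 0.755 over 11 settings).

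CHRNB2 (ENSCAFG00000017172, chromosome 7, 42789600 to 42795722, minus strand) codes for the β subunit that in brain pairs mainly with the CHRNA4 product and that can also join receptors with the CHRNA3 product. Its level was 3.41 to 18.1 CPM in NAMs (median 6.43), 7.90 to 32.8 in group 1 (median 18.6) and 5.78 to 29.7 in group 2 (median 20.5). NAM 4 (18.1 CPM) stood above the other NAMs, and 13 of 19 tumors lay above it. The highest tumors were group 1 tumor 7 (32.8 CPM) and group 2 tumors 12 (29.7 CPM) and 5 (28.9 CPM), and group 2 tumor 11 (5.78 CPM) and group 1 tumor 3 (7.90 CPM) were lowest. CHRNB2 was 2.41-fold higher in PPGLs (log2 FC 1.27, SE 0.25, interval 0.76 to 1.78, adjusted p = 0.000263, 18 of 19 tumors above the NAM median). The difference was 1.31 in group 1 (0.70 to 1.92, adjusted p = 0.0012) and 1.24 in group 2 (0.69 to 1.79, adjusted p = 0.000956), and between the groups 0.07 (−0.51 to 0.65, adjusted p = 0.917).

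Levels of different genes were compared per length, as CPM divided by the exon length in kb (CPM per kb). Among the 5 listed nicotinic genes found, CHRNB4 and CHRNA3 had the highest medians in all groups: 13.4 and 9.54 CPM per kb in NAMs, 26.4 and 26.2 in group 1, and 26.2 and 26.3 in group 2. CHRNB2 followed (4.28, 12.4 and 13.6 in NAMs, group 1 and group 2), and CHRNA5 moved from 0.677 in NAMs to 6.58 in group 1 and 6.06 in group 2. The muscle-type genes CHRNE (12.1) and CHRNB1 (10.3), outside the list, had medians above that of CHRNA3 in NAMs. As a share of the summed level of the 5 genes per length, CHRNA5 made up a median of 2.15% in NAMs (0.827 to 3.05), 9.21% in group 1 (3.65 to 12.7) and 7.83% in group 2 (2.00 to 13.8). The shares of CHRNB4 (42.0%, 39.5% and 35.2%), CHRNA3 (32.5%, 31.4% and 34.1%) and CHRNB2 (15.9%, 16.6% and 16.2%) had medians close to each other in the 3 groups. Single tumors differed more, at 18.9 to 61.6% for CHRNB4, 13.8 to 45.5% for CHRNA3 and 8.39 to 48.3% for CHRNB2. The median CHRNA4 share was 5.30% in NAMs (0.484 to 29.6), 0% in group 1 (0 to 0.108) and 0.867% in group 2 (0 to 23.5). The ratio of CHRNA5 to CHRNA3 per length was 0.0173 to 0.127 in NAMs (median 0.0642), 0.111 to 0.568 in group 1 (median 0.301) and 0.138 to 0.835 in group 2 (median 0.206). These shares and ratios are descriptions with no test, and they say nothing of subunit protein.

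CHRM1 (ENSCAFG00000015467, chromosome 18, 53795326 to 53796708, plus strand) codes for a Gq-coupled muscarinic receptor known to depolarize chromaffin cells of several mammals. Its level was 11.5 to 47.0 CPM in NAMs (median 20.5), 0.0596 to 111 in group 1 (median 2.71) and 0.759 to 106 in group 2 (median 29.7). The tumors lay on both sides of the NAMs, with 3 of 19 above every NAM and 9 below every NAM. In group 1, tumors 4 and 5 had 2 counts each, tumors 7 (2.25 CPM) and 3 (2.71 CPM) were low, tumors 1 (40.3 CPM) and 2 (46.1 CPM) lay among the high NAMs, and tumor 6 reached 111 CPM. In group 2, tumors 1 (0.759 CPM) and 7 (0.818 CPM) were lowest and tumors 3 (106 CPM) and 2 (85.3 CPM) highest. The mean CPM ± SD was 24.5 ± 11.9 in NAMs, 28.9 ± 41.3 in group 1 and 33.2 ± 33.5 in group 2, with the wider spread in tumors. The log2 FC of CHRM1 was 0.37 in PPGLs against NAMs (−1.10 to 1.84, adjusted p = 0.717), with 0.23 in group 1 (−1.61 to 2.07), 0.44 in group 2 (−1.18 to 2.05) and −0.19 between the groups (−2.37 to 1.98, adjusted p = 0.940). Without group 1 tumor 6, it was −0.69 in group 1 against NAMs and −1.11 against group 2.

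CHRM3 (ENSCAFG00000009967, chromosome 4, 506990 to 520613, minus strand) codes for the other Gq-coupled receptor of the list, known for smooth muscle contraction and gland secretion. Its level was 2.04 to 13.0 CPM in NAMs (median 6.61), 0.537 to 15.4 in group 1 (median 2.64) and 1.43 to 51.1 in group 2 (median 19.9). In group 2, 8 of 12 tumors lay above every NAM, with tumors 5 (51.1 CPM), 3 (47.6 CPM) and 1 (42.7 CPM) highest and tumor 11 (1.43 CPM) lowest. In group 1, tumors 7 (0.537 CPM), 1 (0.569 CPM) and 3 (1.47 CPM) lay below every NAM, and tumor 5 (15.4 CPM) was the only tumor of the 7 above every NAM. CHRM3 was higher in group 2 than in NAMs (log2 FC 1.66, SE 0.52, interval 0.60 to 2.73, adjusted p = 0.0146, 11 of 12 tumors above the NAM median). It was lower in group 1 than in group 2 (−2.36, SE 0.69, interval −3.80 to −0.91, adjusted p = 0.0655, 0 of 7 tumors above the group 2 median). In group 1 against NAMs the log2 FC was −0.70 (−1.91 to 0.50, adjusted p = 0.372), and over all PPGLs 1.16 (−0.02 to 2.34, adjusted p = 0.115).

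Single tumors carried weight for CHRM3. The difference between the groups did not pass the threshold without group 1 tumor 2 (−2.26, adjusted p = 0.106), 3 (−2.20, adjusted p = 0.106) or 7 (−2.16, adjusted p = 0.123), and grew to −3.18 (adjusted p = 0.0221) without group 1 tumor 5. Without that tumor, CHRM3 was also lower in group 1 than in NAMs (−1.50, adjusted p = 0.0481). Of the settings chosen after seeing the data, a chromaffin score as covariate gave −2.49 between the groups (adjusted p = 0.119, in a range of 0.00299 to 0.600 over 12 settings). Leaving out 3 doubted tumors gave 1.31 for all PPGLs against NAMs (adjusted p = 0.0496, in a range of 0.0203 to 0.439).

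CHRM4 (ENSCAFG00000009203, chromosome 18, 43082404 to 43083840, plus strand) codes for a Gi-coupled receptor. Its level was 0.655 to 6.94 CPM in NAMs (median 2.45), 0.209 to 9.71 in group 1 (median 2.25) and 0.295 to 6.31 in group 2 (median 0.786), with group 1 tumor 4 (9.71 CPM), NAM 3 (6.94 CPM) and group 2 tumor 3 (6.31 CPM) highest. The groups overlapped, but 7 of 19 tumors lay below every NAM and 1 above every NAM, and 5 of 19 tumors lay above the NAM median, 2 of them among the 12 of group 2. The log2 FC of CHRM4 was −0.28 in PPGLs against NAMs (−1.41 to 0.85, adjusted p = 0.718), 0.33 in group 1 (−1.05 to 1.71), −0.82 in group 2 (−2.03 to 0.38) and 1.13 between the groups (−0.39 to 2.65, adjusted p = 0.409).

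CHRM2 (ENSCAFG00000003363, chromosome 16, 11515426 to 11664977, minus strand), the gene of the Gi-coupled receptor of the heart, was near the floor in most NAMs and group 2 tumors. It was at or under 3 counts in 8 of 10 NAMs, 2 of 7 group 1 tumors and 11 of 12 group 2 tumors, with 0 counts in 6 NAMs, 1 group 1 tumor and 9 group 2 tumors. Group 1 tumors 7 (182 counts, 6.11 CPM) and 2 (103 counts, 4.85 CPM) stood out, followed by group 2 tumor 11 (29 counts, 1.54 CPM), and group 1 tumors 1, 5 and 6 had 8, 12 and 6 counts. CHRM2 was not tested in any comparison. Per length, CHRM1 was the highest of the muscarinic genes in all 10 NAMs, in 3 of 7 group 1 tumors and in 8 of 12 group 2 tumors. In the other tumors CHRM3 (1 in group 1, 4 in group 2), CHRM4 (2 in group 1) or CHRM2 (1 in group 1) was highest. The median CHRM1 level was 14.8 CPM per kb in NAMs, 1.96 in group 1 and 21.5 in group 2, and that of CHRM3 was 3.66, 1.46 and 11.0.

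Because the cortical markers moved with the groups, each comparison was also fitted with the cortical score as covariate. The scores of group 1 do not overlap those of the NAMs (9.31 to 11.49), so this fit takes away differences that run along with the groups. In group 1 against NAMs, 0 of the 8 receptor genes passed in either direction (4 higher and 1 lower without the covariate). This count does not show whether the log2 FC shrank or only the test weakened. Over all genes 8 were higher and 3 lower there, against 3194 and 2137 without the covariate. In PPGLs against NAMs, CHRNA5 and CHRNB2 (log2 FC 1.09, adjusted p = 0.0227, in a range of 2.54e-06 to 0.0227 over 12 settings) passed. CHRNA3 kept its size but did not pass (1.17, adjusted p = 0.0668, in a range of 0.000663 to 0.0668), and neither did CHRNB4 (0.83, adjusted p = 0.119, in a range of 0.00135 to 0.119). CHRM3 was higher with the covariate (2.34, adjusted p = 0.0203, in a range of 0.0203 to 0.439), and CHRNA4 changed sign (2.87, adjusted p = 0.0448, in a range of 0.000948 to 0.383). In group 2 against NAMs, CHRNA5 (3.25, adjusted p = 0.000654) was the only receptor gene that passed. There CHRNB2 was at 0.96 (adjusted p = 0.103), CHRNA3 at 0.92 (0.240), CHRNB4 at 0.80 (0.219) and CHRM3 at 1.49 (0.187), and each of these adjusted p-values is the highest of its range over 11 settings, with the lowest 4.77e-05, 0.00099, 0.00485 and 0.00309.

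Over all 29 samples, the named genes with the highest Spearman rho to each receptor gene were SLC1A4 (0.92), BCOR (0.88) and SERINC1 (0.88) for CHRNA5, NFASC (0.87), UBE2Q1 (0.87) and MAB21L2 (0.86) for CHRNA3, and FAM163A (0.83), NFASC (0.82) and PRXL2C (0.82) for CHRNB4. For CHRNB2 they were NCOA5 (0.91), DIRAS1 (0.91) and ZNF398 (0.90), and for CHRNA4 TNMD (0.86), SLC16A12 (0.84) and LMAN1L (0.84). Values were lower for the muscarinic genes: CNTFR (0.75), ADD2 (0.75) and MAGT1 (0.73) for CHRM1, HS3ST5 (0.80), NWD2 (0.73) and UBL3 (0.73) for CHRM3, and CDADC1 (0.78), DGKZ (0.75) and ZNRD2 (0.74) for CHRM4. These pooled values include the difference between tumors and NAMs and are descriptions only.

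Of 11 other acetylcholine receptor genes listed, 10 were found and 2 were tested in PPGLs against NAMs, and both were lower (all genes 15.2%), too few to describe the list. Of the 4 tested in group 1 against NAMs, 1 was lower (all genes 14.1%). In group 2 against NAMs, 2 of the 4 tested were lower (all genes 14.5%). CHRM5, which codes for a Gq-coupled muscarinic receptor, was low throughout, with medians of 0.225 CPM in NAMs, 0.333 in group 1 and 0.375 in group 2. Of 19 tumors, 8 lay above every NAM and 4 below every NAM for CHRM5. CHRNB1, which codes for the β subunit of the muscle receptor, was lower (log2 FC −1.36, SE 0.32, adjusted p = 0.00159), with 14 of 19 tumors below every NAM. CHRNE, which codes for the adult muscle ε subunit and overlaps other genes on the opposite strand, so that its counts are uncertain, was also lower (−0.70, SE 0.25, adjusted p = 0.0282), but not without NAM 6 (−0.64, adjusted p = 0.0585) or NAM 8 (−0.65, adjusted p = 0.0553). CHRNA1 had 0 counts in all samples.

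Among nicotinic receptor assembly genes and modulators, 8 of 11 were found, and of 6 tested 2 were higher (all genes 22.3%) and 2 lower (all genes 15.2%) in PPGLs against NAMs, too few to read against those shares. The chaperone gene RIC3 was higher (log2 FC 0.87, SE 0.20, adjusted p = 0.00109), from a median of 15.8 CPM in NAMs to 26.2 in group 1 and 33.9 in group 2. RAPSN, coding for the protein that clusters the muscle receptor, was higher as well (2.49, SE 0.53, adjusted p = 0.000626), although 8 of 10 NAMs were at or under the floor. LYPD6 and LYPD1, coding for GPI-anchored proteins that bind nicotinic receptors, were lower. LYPD6 fell from a median of 12.4 CPM in NAMs to 0.134 in group 1 and 1.83 in group 2 (−3.09, SE 0.62, adjusted p = 0.000316, and −3.70 without group 2 tumor 10), and LYPD1 was −1.51 (SE 0.50, adjusted p = 0.0185). TMEM35A, the gene of the nicotinic receptor chaperone NACHO, was higher in group 1 than in NAMs (1.14, interval 0.40 to 1.89, adjusted p = 0.0159, but 0.91 and 0.0584 without group 1 tumor 4). TMEM35A did not pass there by the Mann-Whitney U-test (adjusted p = 0.374) or with the cortical score as covariate (log2 FC 1.45, adjusted p = 0.529), in a range of 0.000475 to 0.529 over 11 settings, and in group 2 its log2 FC was −0.05 (−0.71 to 0.60).

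**Figure D3:**
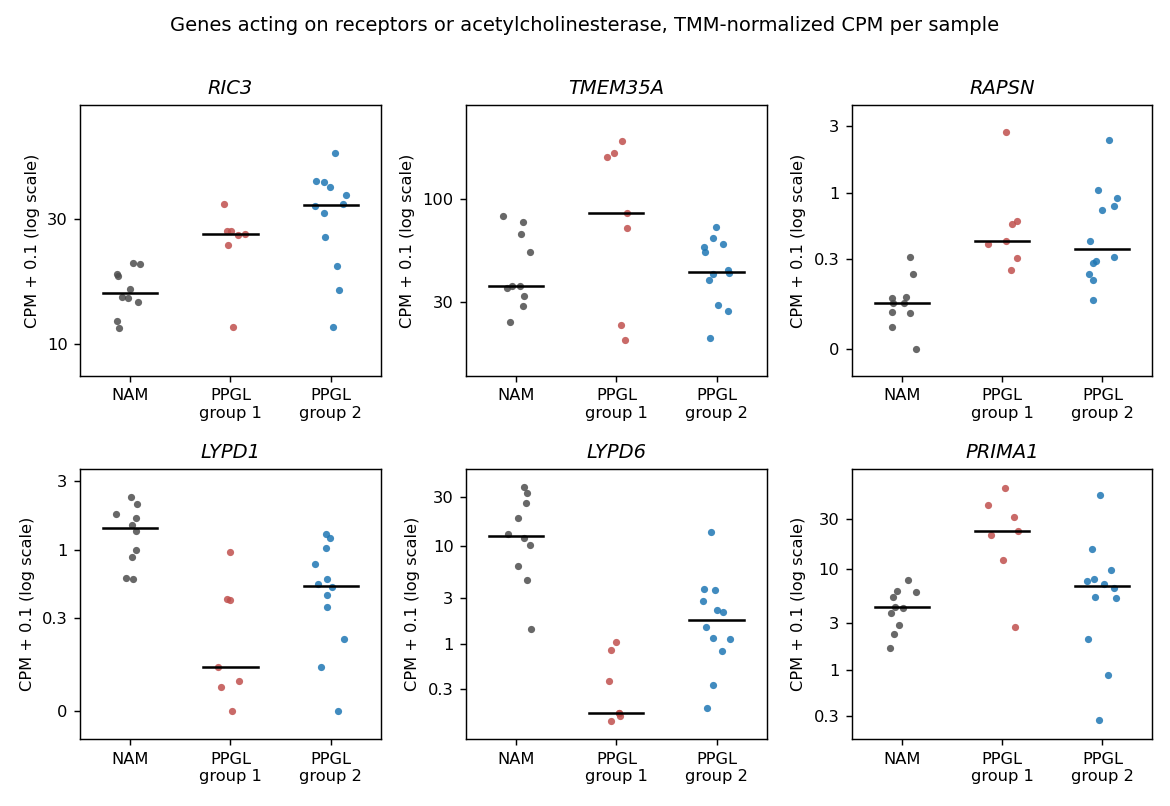
Levels of genes for nicotinic receptor chaperones (RIC3, TMEM35A), a clustering protein (RAPSN), receptor-binding proteins (LYPD1, LYPD6) and the membrane anchor of acetylcholinesterase (PRIMA1) in each sample (CPM + 0.1, log scale). Each point is 1 sample, and the black line is the group median.

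Of 7 genes for acetylcholine synthesis, storage and breakdown, 6 were found and 4 tested in PPGLs against NAMs, and 1 of the 4 (all genes 22.3%), PRIMA1, was higher (log2 FC 1.89, SE 0.59, adjusted p = 0.0122, not passing by the Mann-Whitney U-test). With the cortical score as covariate, PRIMA1 (−0.017), LYPD6 (−1.52), LYPD1 (−0.53), CHRNB1 (−0.66) and CHRNE (−0.62) did not pass. ACHE, coding for acetylcholinesterase, had medians of 130 CPM in NAMs, 133 in group 1 and 196 in group 2 (log2 FC −0.08, −0.77 to 0.61). CHAT, the gene of the acetylcholine-synthesizing enzyme, was at or under the floor in all 10 NAMs, and group 1 tumor 6 had 61 counts. The same tumor had the highest CHRM1 level of all samples and 182 counts of the vesicular acetylcholine transporter gene SLC18A3. The choline transporter gene SLC5A7 had 44 counts there (2.57 CPM), beside 84 in NAM 6 (2.91 CPM) and 57 in group 2 tumor 1 (2.4 CPM). Of 28 tested genes of muscarinic signalling, 7 were higher and 5 lower, shares near the 22.3% and 15.2% of all genes, with KCNQ5 (3.25, adjusted p = 9.03e-05) and GRK5 (−2.57, adjusted p = 2.94e-06) at the ends. Of 22 tested receptors for other secretagogues, 4 were higher and 2 lower, shares under the 22.3% and 15.2% of all genes, with P2RX2 at 3.51 (adjusted p = 0.00213, not passing by the Mann-Whitney U-test) and P2RY1 at −1.55 (adjusted p = 7.16e-05). Of 11 tested genes for factors known to act on the nicotinic gene cluster or its cell lineage, 5 were higher and 0 lower. These are too few to read against the 22.3% and 15.2% of all genes. GATA2 (2.24, adjusted p = 5.84e-06) and PHOX2A (2.17, adjusted p = 1.75e-07, 19 of 19 tumors above every NAM) were among the 5.

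Markers of other cell types were counted in the same way for PPGLs against NAMs. Over all genes 22.3% were higher and 15.2% lower, and most marker lists are too short to read against these shares. Of the tested markers, 0 of 8 for Schwann and sustentacular cells passed by edgeR. Of neuron markers 1 of 7 was higher and 2 lower, of leukocyte markers 3 of 8 higher and 1 lower, of endothelial markers 0 of 7 higher and 3 lower, of smooth muscle and fibroblast markers 4 of 10 higher and 0 lower, of skeletal muscle markers 1 of 3 lower and of liver and kidney markers 1 of 2 lower. Their summed medians in NAMs, group 1 and group 2 were 192, 144 and 123 CPM for leukocytes (CSF1R most abundant) and 457, 418 and 710 CPM for smooth muscle and fibroblasts (COL1A1 most abundant). Group 2 tumor 11, with the lowest CHRM3 and CHRNB2 levels of its group and 0 CHRNA4 counts, had the highest sums for leukocytes (1108 CPM) and fibroblasts (14793 CPM). Their part in the receptor results was not tested.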

How the data were processed

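RNA was sequenced from 10 NAMs, 7 group 1 and 12 group 2 PPGLs. The authors deposited a table of raw counts per gene over exons, in the unit count. Their processing notes name FastQC, STAR alignment to CanFam3.1 and Picard. The counting program is not settled, since the notes name HTSeq and the label names featureCounts, and the strand setting is not stated. The floor of 3 counts was applied per library, and library totals ran from 18208718 to 35918182.

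The counts were analysed in R 4.3.3 with edgeR 4.0.16, limma 3.58.1 and DESeq2 1.42.0. Genes were kept by filterByExpr (minimum count 10, minimum total 15), scaled by TMM and compared with edgeR's quasi-likelihood F test, with Benjamini-Hochberg adjustment over all genes tested (threshold 0.05 against NAMs, 0.1 between groups). PPGLs against NAMs were fitted as 2 groups, each tumor group against NAMs in a fit of 3 groups with a shared spread, and group 1 against group 2 among the 19 tumors. The pipeline was tested on simulated data. Correlations used log2 CPM, permutation tests and Benjamini-Hochberg adjustment over all values.

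All receptor genes are named, and genes of the lists for other receptors, assembly, acetylcholine turnover and cluster neighbours may be named. From the signalling, secretagogue and regulator lists, up to 4 genes that passed may be named in each direction, ordered by the size of the log2 FC, and for each tested receptor gene the 3 genes with the highest Spearman rho. The receptor genes and the lists were chosen with earlier results of these data known. With those results known, but before the counts were examined, the groups, the tests and the following alternatives were fixed: DESeq2 size factors, library size scaling, no low-count filter, a 1 CPM filter, the DESeq2 Wald test, the Mann-Whitney U-test used in the study, a prior count of 2, the sample number as replicate block, the cortical score (mean log2 CPM of the adrenal cortex markers) as covariate, 3 groups or all 29 samples in the fit, and leaving out each sample. Chosen after seeing the data were a chromaffin score as covariate and a fit without 3 doubted tumors: group 1 tumor 7 (lowest CHGB), group 2 tumor 10 (cortical score within the range of NAMs) and group 2 tumor 11 (highest leukocyte and fibroblast markers). Group 1 tumor 5 was kept in that fit, although its chromaffin score was the lowest of all samples (6.53, against 6.69 in group 1 tumor 7). List counts carry no test of their own.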

Additional observations from a re-analysis of the deposited data

Results flagged for a closer look

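In groups of 4 to 10 samples, the gap between the most extreme sample and the next, divided by the range of the group, was compared with Dixon's limit. Of 46 groups examined over the receptor genes and the genes around them, 7 had a gap past the limit, and chance alone gives about 1 in 20. The genes were measured in the same 10 NAMs and 7 group 1 tumors. The gaps are therefore not independent, and their count is no test. Group 2, with 12 samples, was not examined. All 7 gaps were in group 1. Tumor 3 was far below the others for CHRNB2 (0.591) and far above them for RAPSN (0.638). Tumor 4 was far below the others for CHRNB1 (0.610) and RIC3 (0.669). Tumor 6 was far above the others for SLC18A3 (0.804) and SLC5A7 (1.0, all others at 0), and tumor 7 far below them for ACHE (0.628).

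For the following genes, the log2 FC of group 1 against group 2 passed the threshold of 0.1 for the adjusted p of edgeR's quasi-likelihood test. The groups were drawn from the same samples. Of the receptor genes these were CHRNA4 (−6.19) and CHRM3 (−2.36). Among genes for receptor assembly, TMEM35A was higher (1.21, adjusted p = 0.078) and LYPD6 lower (−2.75, adjusted p = 0.0600). TMEM35A did not pass without group 1 tumor 1 (adjusted p = 0.133), 4 (0.170) or 6 (0.144), nor without group 2 tumor 1 (0.107), 8 (0.110), 9 (0.104), 10 (0.112), 11 (0.106) or 12 (0.106), and LYPD6 did not pass without group 1 tumor 7 (−2.57, adjusted p = 0.127) and was −2.11 without group 2 tumor 10. By the Mann-Whitney U-test TMEM35A did not pass (adjusted p = 0.489, in a range of 0.0259 to 0.765 over 12 settings), and LYPD6 did not pass with the chromaffin score as covariate (−2.94, adjusted p = 0.130) or without the 3 doubted tumors (−2.07, adjusted p = 0.127), in a range of 0.00303 to 0.930. PLCB3 (1.05) and PLCB4 (1.22, adjusted p = 0.00541, all 7 tumors above every group 2 tumor), phospholipases downstream of Gq, were higher. The neuropeptide Y receptor genes NPY1R (−4.99, and −5.66 without group 1 tumor 2) and NPY5R (−8.46) were lower. NPY5R had 0 counts in all 7 group 1 tumors, so its fitted value depends on the prior count and is no bound, and NPY5R did not pass by the Mann-Whitney U-test (adjusted p = 0.131, in a range of 3.91e-06 to 0.249 over 11 settings). ISL1 (5.02, and 6.14 without group 2 tumor 7) and HAND2 (1.02) were higher. HAND2 did not pass without group 1 tumor 3 (adjusted p = 0.105), 4 (0.108) or 7 (0.146), nor by the Mann-Whitney U-test (0.131), with the chromaffin score (0.89, adjusted p = 0.162) or without the 3 doubted tumors (0.78, adjusted p = 0.234), in a range of 0.0225 to 0.795 over 12 settings. TMEM35A (0.50), LYPD6 (−2.81), PLCB3 (0.97), PLCB4 (1.13), NPY1R (−3.82), NPY5R (−7.72), ISL1 (5.12) and HAND2 (1.05) did not pass with the sample number as replicate block. Their adjusted p by edgeR's quasi-likelihood test then ran from 0.126 to 0.765. Sample numbers count different animals in each group, so this block adds terms to the fit without matching samples. With the cortical score as covariate, 0 genes passed between the groups by edgeR. The log2 FC with that covariate was −6.06 for NPY1R, −10.01 for NPY5R, 1.64 for TMEM35A, 1.11 for PLCB4, 0.62 for PLCB3, −0.58 for LYPD6, 3.00 for ISL1 and 0.63 for HAND2, so some values were as large as without it and others smaller.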

How the results depend on the processing

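Named genes kept their direction and their side of the threshold in 2750 of the comparisons with an alternative, lost the threshold in 138, gained it in 11 and changed sign in 43. Many of the sign changes were in values near 0. The cause of these changes was not tested, except that fits with fewer samples or genes test less.

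Counts of receptor genes moved in these settings, among others that are given with the single genes. In PPGLs against NAMs, 1 was lower by the Mann-Whitney U-test and 1 with 3 groups in the fit (0 in the report). In group 1 against NAMs, 2 were higher by the Mann-Whitney U-test (4 in the report), with 1962 genes higher and 2307 lower in all, against 3194 and 2137. In group 1 against group 2, 1 was lower with a 1 CPM filter, 1 by the Mann-Whitney U-test and 1 with the chromaffin score as covariate (2 in the report). In PPGLs against NAMs, the balance of 3295 genes higher and 2246 lower turned to 2915 and 2990 by the Mann-Whitney U-test and to 2273 and 2380 with the replicate block, and in group 2 against NAMs that of 2798 and 2207 turned to 2772 and 2949 and to 1987 and 2193. Over all genes, group 1 against group 2 had 582 higher and 433 lower, and 916 and 877 by the DESeq2 Wald test, 160 and 226 by the Mann-Whitney U-test, 1405 and 1162 with all 29 samples in the fit, 286 and 623 with the chromaffin score, and 180 and 198 without 3 doubted tumors. Library size scaling moved the median log2 FC of all genes in group 1 against NAMs from 0.13 to 0.24.

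With the cortical score as covariate, which also takes away differences that run along with tissue, 1209 genes were higher and 973 lower in PPGLs against NAMs, 8 and 3 in group 1 against NAMs (receptor genes 0 and 0), 673 and 416 in group 2 against NAMs (1 receptor gene higher), and 0 and 0 in group 1 against group 2 (0 receptor genes lower). Signs changed for CHRNA4 (2.87 in PPGLs, 2.60 in group 1 and 2.79 in group 2, each against NAMs), CHRM1 (1.49) and CHRNB2 (−0.060) between the groups, PLCB4 (−0.0080) and PRIMA1 (−0.017) in PPGLs against NAMs, and PRIMA1 (−0.0061) and TMEM35A (0.071) in group 2 against NAMs. With the chromaffin score, signs changed for CHRM1 (1.32 between the groups, −0.086 in group 2 against NAMs) and TMEM35A (0.059 in group 2 against NAMs), and without 3 doubted tumors for CHRNA5 (−0.0064) and CHRNB2 (−0.24) between the groups and TMEM35A (0.021) in group 2 against NAMs.

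Sample numbers count different animals in each group. Over 24 pairs of the same number, the correlation of deviations from the group means was −0.23 at the lowest, −0.01 at the median and 0.25 at the highest, so the samples share only a number. With the number as replicate block, CHRM1 was −0.38 in PPGLs, −1.10 in group 1 and −0.17 in group 2 against NAMs, CHRM4 was −0.35 in group 1 against NAMs, CHRNA5 −0.13, CHRNB2 −0.18 and CHRNB4 −0.11 between the groups, and TMEM35A 0.0071 in group 2 against NAMs. The replicate block left 1921 genes higher and 2015 lower, and 2 receptor genes higher, in group 1 against NAMs, and 10 genes higher, 37 lower and 0 receptor genes lower in group 1 against group 2, and TMEM35A in group 1 against NAMs was 0.82 (adjusted p = 0.163, in a range of 0.000475 to 0.529). CHRNA3 in PPGLs against NAMs was 0.97 (adjusted p = 0.0542, in a range of 0.000663 to 0.0668) with the block.

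Leaving out 1 sample at a time gave 2 to 4 receptor genes higher and 1 to 2 lower in group 1 against NAMs, and 1 to 2 lower in group 1 against group 2, with 256 to 733 genes higher and 269 to 485 lower there (256 and 269 without group 1 tumor 7). CHRM1 ranged from −0.69 to 0.45 in group 1 against NAMs and from −1.11 to 0.14 between the groups. CHRM4 ranged from −0.59 to 0.0014 in PPGLs and from −0.22 to 0.62 in group 1, against NAMs. Between the groups, CHRNA5 ranged from −0.10 to 0.33, CHRNB2 from −0.083 to 0.21 and CHRNB4 from −0.10 to 0.23. TMEM35A ranged from −0.14 to 0.071 in group 2 against NAMs. Differences between the groups rest on 7 and 12 tumors, and at this depth a gene at or under 3 counts cannot be told from 0, which limits CHRNA4 and CHRM2.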
